A study of Mus musculus with 3 samples.

Results

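Transcript levels of 10 genes of the AP-1 and immediate early group were read in 3 epithelia of C57BL/6 mice. The genes were taken by symbol, as Fos, Fosb, Fosl1 and Fosl2, Jun, Junb and Jund, Egr1 and Egr2, and Atf3, and each was found among the 22609 symbols measured. Cortical thymic epithelial cells (cTEC, positive for Ly51) and medullary thymic epithelial cells (mTEC, positive for the lectin UEA1) were sorted as CD45-negative, EpCAM-positive cells from thymi of 14 pooled mice at postnatal day 7. Skin epithelial cells (skinEC) were keratinocytes sorted as EpCAM-positive, CD11c-negative cells from the epidermis of the trunk and back of 7 pooled newborn mice. The mice carried no transgene or treatment that the labels name. Each population gave 1 library, so the values carry no replicate error and no test was run, and tissue, age and sort cannot be told apart between thymus and skin.

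Jun and Fos proteins pair through a leucine zipper into the dimeric transcription factor AP-1, which binds DNA through the adjoining basic region. Immediate early genes are transcribed within minutes of a growth factor, stress or wounding signal without new protein synthesis, and their messages are short-lived. In epidermis AP-1 is known for its part in proliferation, differentiation and wound repair, and isolating cells from a tissue is itself known to induce many of these genes. Egr1 and Egr2 encode zinc finger factors of the same early response, and Atf3 encodes a stress-induced relative of Jun and Fos that often represses transcription.

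Levels are in RPKM, the reads on a gene scaled by gene length and by the mapped reads of the library, and so can be compared between genes. The libraries rested on an estimated 56800000 mapped reads in cTEC, 55700000 in mTEC and 55900000 in skinEC, at which 3 reads on a gene of 1 kb amount to 0.0528, 0.0539 and 0.0537 RPKM. The defining markers went with the labels: 7 of 7 cortical genes were highest in cTEC, 6 of 6 medullary genes in mTEC and 5 of 7 keratinocyte genes in skinEC (Ivl and Lor were highest in mTEC). The summed level of 10 leukocyte and myeloid markers was 14.7 in cTEC, 854 in mTEC and 10.9 RPKM in skinEC, with none of the markers at 0 in any library and 10 of 10 highest in mTEC. Of the mTEC sum, Laptm5 gave 460 and Lyz2 283 RPKM, while Ptprc was at 8.01 RPKM. Summed markers of other cells, in the order cTEC, mTEC and skinEC, were 12.3, 27.7 and 4.69 RPKM for thymocytes, 39.9, 101 and 34.1 RPKM for fibroblasts, 15.7, 18.3 and 0.422 RPKM for endothelium, and 3.88, 524 and 1.22 RPKM for Langerhans and skin T cells, of which Cd52 gave 515 RPKM in mTEC. General epithelial markers summed to 2418, 1492 and 609.8 RPKM, an order set by Krt8 (1990, 885.5 and 8.25 RPKM). Epcam was highest in mTEC (223, 398 and 142 RPKM) and Cdh1 in skinEC (205, 209 and 460 RPKM). Fewer cells of a type and less RNA per cell cannot be told apart in such sorted bulk samples.

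The proximal promoters of 4 members are shown because they span the range of patterns described below: Jun and Fos, abundant in each library, Junb, the most even member, and Egr2, the most uneven. RefSeq windows (GRCm38.p6, 250 bases before to 50 after a start) were at hand for 8 members, and the other two, Fosl1 and Egr1, are named only. Each sequence is written 5′ to 3′ on the gene's strand. Capitals mark a CArG box (the core of the serum response element), TGACGT (the core of the cAMP response element), TGACATCA (the AP-1-like site known from the Jun promoter) and TATAAA, each on either strand.
Fos, chr12:85473640-85473939, + strand: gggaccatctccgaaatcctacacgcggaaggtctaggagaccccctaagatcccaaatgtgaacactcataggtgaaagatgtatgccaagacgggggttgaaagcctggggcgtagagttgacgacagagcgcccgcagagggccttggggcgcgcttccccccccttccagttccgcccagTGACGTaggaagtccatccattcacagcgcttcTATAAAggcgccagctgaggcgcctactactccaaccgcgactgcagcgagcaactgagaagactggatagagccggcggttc
Jun, chr4:95052173-95052472, - strand: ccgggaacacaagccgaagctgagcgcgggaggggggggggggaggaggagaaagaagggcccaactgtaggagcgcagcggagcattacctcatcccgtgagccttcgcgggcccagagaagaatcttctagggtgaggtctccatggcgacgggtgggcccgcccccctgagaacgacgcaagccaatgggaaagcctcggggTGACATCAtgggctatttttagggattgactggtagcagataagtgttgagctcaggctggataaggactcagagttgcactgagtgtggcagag
Junb, chr8:84978699-84978998, - strand: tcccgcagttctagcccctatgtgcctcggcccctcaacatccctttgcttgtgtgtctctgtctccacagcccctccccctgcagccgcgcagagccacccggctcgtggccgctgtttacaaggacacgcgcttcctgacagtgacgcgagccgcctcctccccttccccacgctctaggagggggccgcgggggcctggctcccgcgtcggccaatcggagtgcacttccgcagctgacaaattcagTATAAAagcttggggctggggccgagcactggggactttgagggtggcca
Egr2, chr10:67537619-67537918, + strand, 1 of 5 windows of this gene: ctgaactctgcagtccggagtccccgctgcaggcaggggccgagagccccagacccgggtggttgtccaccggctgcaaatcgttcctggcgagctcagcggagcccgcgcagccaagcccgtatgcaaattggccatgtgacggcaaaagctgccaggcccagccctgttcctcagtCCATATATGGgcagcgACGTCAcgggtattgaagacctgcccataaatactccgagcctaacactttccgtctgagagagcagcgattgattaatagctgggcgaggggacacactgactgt

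In the Fos window TGACGT lay at -66 to -61 and TATAAA at -33 to -28 from the start. In the Jun window TGACATCA lay at -45 to -38. In the Junb window TATAAA lay at 1 to 6, at the annotated start itself and not before it as in Fos. The Egr2 window held a CArG box at -72 to -63 beside TGACGT, read on the other strand, at -56 to -51. Over all 32851 windows of 27025 genes, a CArG box was present in 1.63%, TGACGT in 7.51%, TGACATCA in 3.62% and TATAAA in 13.6%. Among the 8 members with a window, a CArG box was found in 1 (Egr2), TGACGT in 3 (Fos, Egr2, Atf3), TGACATCA in 1 (Jun) and TATAAA in 2 (Fos, Junb). The full cAMP response element TGACGTCA, which contains TGACGT and stood in 1.79% of windows, and the 7-base AP-1 site TGACTCA, in 5.2%, had no match in a member's window. The GC box GGGCGG was in 6 members and in 35.7% of all windows. A member counted if any of its windows matched (12 windows in all, 5 of them of Egr2), whereas the shares are of single windows. These matches describe letters in a short window and were not tested for binding.

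All 10 members had their highest RPKM in skinEC, and 9 of 10 on the TPM scale, where each library is brought to the same sum and Fosb lay slightly higher in cTEC. The lowest level was in cTEC for 6 members and in mTEC for 4. Among the 16869 genes that reached 1 RPKM in any library, 5082 were lowest in cTEC, 5553 in mTEC and 6234 in skinEC. Here a tie counted for the first library named. Summed over the 10 genes, the level was 720 in cTEC, 519 in mTEC and 2200.0 RPKM in skinEC. Of all 16869 genes that reached 1 RPKM in any library, 33.9% were highest in skinEC, and of the 10442 genes that reached 10 RPKM, 44.2%.

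**Figure D1:**
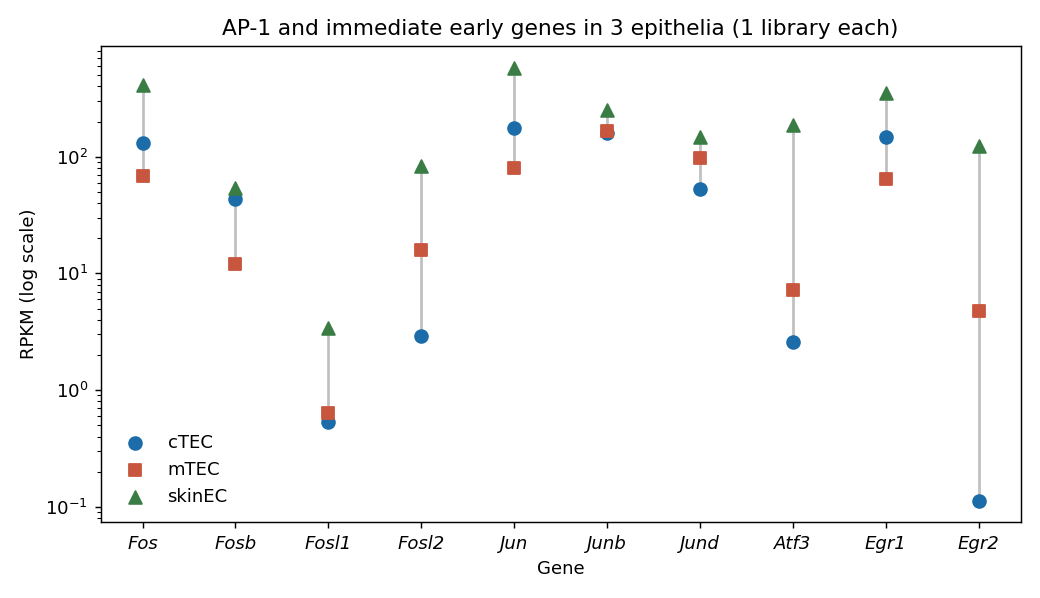
RPKM of each member (log scale) in the single library of cTEC (circles), mTEC (squares) and skinEC (triangles), with a line from lowest to highest. The triangle is uppermost for all 10 genes (for 9 on the TPM scale, where Fosb turns), and the span runs from 1.58-fold for Junb to 1090-fold for Egr2.

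Jun family genes encode the partners of Fos proteins in AP-1, and they were abundant in each library. Jun (Entrez 16476), the founding member and a target of JNK, was at 176 in cTEC, 80.3 in mTEC and 580 RPKM in skinEC. It was thus 3.31-fold higher in skinEC than in cTEC, 7.23-fold higher than in mTEC, and 2.18-fold higher in cTEC than in mTEC. In skinEC it ranked 97th of all genes by RPKM, in cTEC 335th and in mTEC 913th. Junb (Entrez 16477), which antagonises Jun at some targets, was at 160 in cTEC, 167 in mTEC and 253 RPKM in skinEC, the narrowest range of the 10 genes. Jund (Entrez 16478), the member known to be expressed in resting cells, was at 52.9 in cTEC, 98.3 in mTEC and 147 RPKM in skinEC. Unlike Jun, it had a larger value in mTEC than in cTEC.

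The make-up of the family therefore differed between libraries. Jun took 59.2% of the summed level of Jun, Junb and Jund in skinEC, 45.1% in cTEC and 23.2% in mTEC. Junb was the leading member in mTEC, with 48.3% against 41.3% in cTEC and 25.8% in skinEC. The ratio of Jun to Junb, which does not depend on how a library is scaled, was 2.3 in skinEC, 1.09 in cTEC and 0.481 in mTEC. The share of Jund was 28.4% in mTEC, 13.6% in cTEC and 15.0% in skinEC.

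Within the AP-1 dimer, Fos family proteins bind DNA as partners of a Jun protein. Fos (Entrez 14281), induced through the serum response element of its promoter, was at 132 in cTEC, 68.0 in mTEC and 413 RPKM in skinEC. The short Fos window printed above held no CArG box. Its order over the libraries was that of Jun, with a level 6.07-fold higher in skinEC than in mTEC and 1.95-fold higher in cTEC than in mTEC. Fosb (Entrez 14282), whose splice forms include the stable ΔFosB that a gene-level value cannot separate, was at 43.8 in cTEC, 12.1 in mTEC and 53.6 RPKM in skinEC. Its cTEC and skinEC values were close, and their log2 ratio turned from 0.28 higher in skinEC to -0.07 on the TPM scale.

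The Fos-related antigens lack the strong activation domain of Fos. Unlike Fos, Fosl2 was lower in cTEC than in mTEC, while Fosl1 was nearly level between them. Fosl2 (Entrez 14284), which encodes Fra-2, was at 2.92 in cTEC, 15.7 in mTEC and 83.6 RPKM in skinEC, 28.6-fold higher in skinEC than in cTEC and 5.39-fold higher in mTEC than in cTEC. Fosl1 (Entrez 14283), which encodes Fra-1, was the least abundant member in mTEC and skinEC, at 0.528 in cTEC, 0.634 in mTEC and 3.38 RPKM in skinEC. Its values correspond to about 56, 66 and 350 reads on its longest annotated transcript. Fos made up a like share of the family sum in each library, 73.7% in cTEC, 70.5% in mTEC and 74.6% in skinEC. The remainder was divided differently, with Fosb at 24.4% and Fosl2 at 1.63% in cTEC against 12.6% and 16.3% in mTEC and 9.67% and 15.1% in skinEC.

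**Figure D2:**
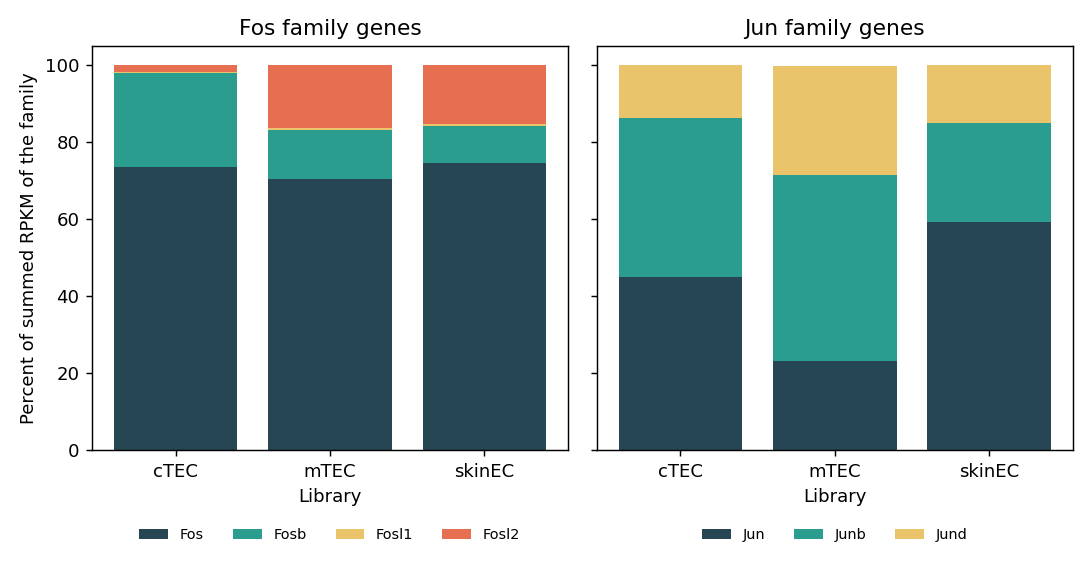
Percent of the summed RPKM of the Fos family (left) and Jun family (right) contributed by each gene, in 1 library per population. Fos holds 70.5% to 74.6% of its family throughout, while Jun holds from 23.2% in mTEC to 59.2% in skinEC.

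Summed over members, the Jun family stood above the Fos family in each library. The Jun family sum was 389 in cTEC, 346 in mTEC and 980.5 RPKM in skinEC, and the Fos family sum was 180 RPKM, 96.5 RPKM and 554 RPKM in the same order. The Jun family sum was 2.16 times the Fos family sum in cTEC, 3.58 times in mTEC and 1.77 times in skinEC.

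Atf3 (Entrez 11910) was at 2.61 in cTEC, 7.16 in mTEC and 189 RPKM in skinEC. The skinEC level was 72.2-fold that of cTEC and 26.3-fold that of mTEC, so that a gene ranking 11177th by RPKM in cTEC and 9874th in mTEC ranked 423rd in skinEC. Both thymic values were low, and the gap between them (log2 ratio of mTEC over cTEC 1.18) was small beside that to skinEC.

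Egr1 (Entrez 13653), the early growth response factor most widely used as a sign of ERK signalling, was at 148 in cTEC, 65.1 in mTEC and 354 RPKM in skinEC. It followed the order of Jun and Fos, 2.28-fold higher in cTEC than in mTEC and 5.44-fold higher in skinEC than in mTEC. Egr2 (Entrez 13654), best known for hindbrain patterning and myelination and also expressed in hair follicles, was at 0.113 in cTEC, 4.74 in mTEC and 123 RPKM in skinEC. The cTEC value corresponds to about 19 reads on the longest annotated transcript, against about 780 in mTEC and 20000 in skinEC. The relation of the 2 genes thus differed widely, with Egr1 at 1311 times the level of Egr2 in cTEC, 13.7 times in mTEC and 2.87 times in skinEC. Egr3, a further zinc finger gene of the family, was at 0.0873 in cTEC, 5.40 in mTEC and 55.6 RPKM in skinEC, an order like that of Egr2, and Egr4 stayed under 1 RPKM in each library. The corepressor genes Nab1 and Nab2, whose products bind Egr proteins and limit their activity, were chosen after their values were seen. Nab1 was at 12.3, 9.05 and 27.2 RPKM and Nab2 at 16.2, 11.4 and 29.9 RPKM in cTEC, mTEC and skinEC.

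Cortical and medullary epithelium were compared first. A gene was counted as apart from 4-fold on the log2(RPKM + 1) scale, which understates differences of low genes. Of the 10 members, 2 were at least 4-fold higher in mTEC, Egr2 (log2 ratio of mTEC over cTEC 2.37) and Fosl2 (2.09), where 15.2% of all genes were. None was at least 4-fold higher in cTEC, where 2.69% of all genes were. The 4 members with a larger value in cTEC were Fosb (log2 ratio of cTEC over mTEC 1.77), Egr1 (1.18), Jun (1.12) and Fos (0.95). Junb (-0.06) and Fosl1 (-0.10) were nearly level, and Jund (-0.88) and Atf3 (-1.18) lay toward mTEC. The leukocyte and myeloid markers were also highest in mTEC, with 8 of 10 at least 4-fold higher there than in cTEC, and their part in the values of Egr2 and Fosl2 was not tested. The median over the members was -0.08, and so was the median over all genes.

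Against skinEC, a non-thymic epithelium, the members lay to the side of the skin, and both of these comparisons use the same skinEC library. Of the 10, 3 were at least 4-fold higher in skinEC than in cTEC, against 5.82% of all genes, and none was higher in cTEC, against 6.3%. These were Egr2 (log2 ratio of skinEC over cTEC 6.80), Atf3 (5.71) and Fosl2 (4.43). The next were Jun (1.72), Fos (1.63), Fosl1 (1.52), Jund (1.46) and Egr1 (1.25), and the median of the members was 1.58 against 0.00 for all genes. Over mTEC, 7 members were at least 4-fold higher in skinEC, against 4.2% of all genes, and none was higher in mTEC, against 16.8%, with a median of 2.38 against -0.16. Atf3 (log2 ratio of skinEC over mTEC 4.54) and Egr2 (4.44) led, followed by Jun (2.84), Fos (2.58), Egr1 (2.42), Fosl2 (2.34) and Fosb (2.05). Junb (0.59) and Jund (0.58) were the least apart. The count of 7 became 4 when libraries were scaled by the median ratio of genes expressed in all 3, since Egr1 (1.95), Fosl2 (1.87) and Fosb (1.60) then came under the rule. That scaling moves the median of all genes by -0.43 in this comparison.

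**Figure D3:**
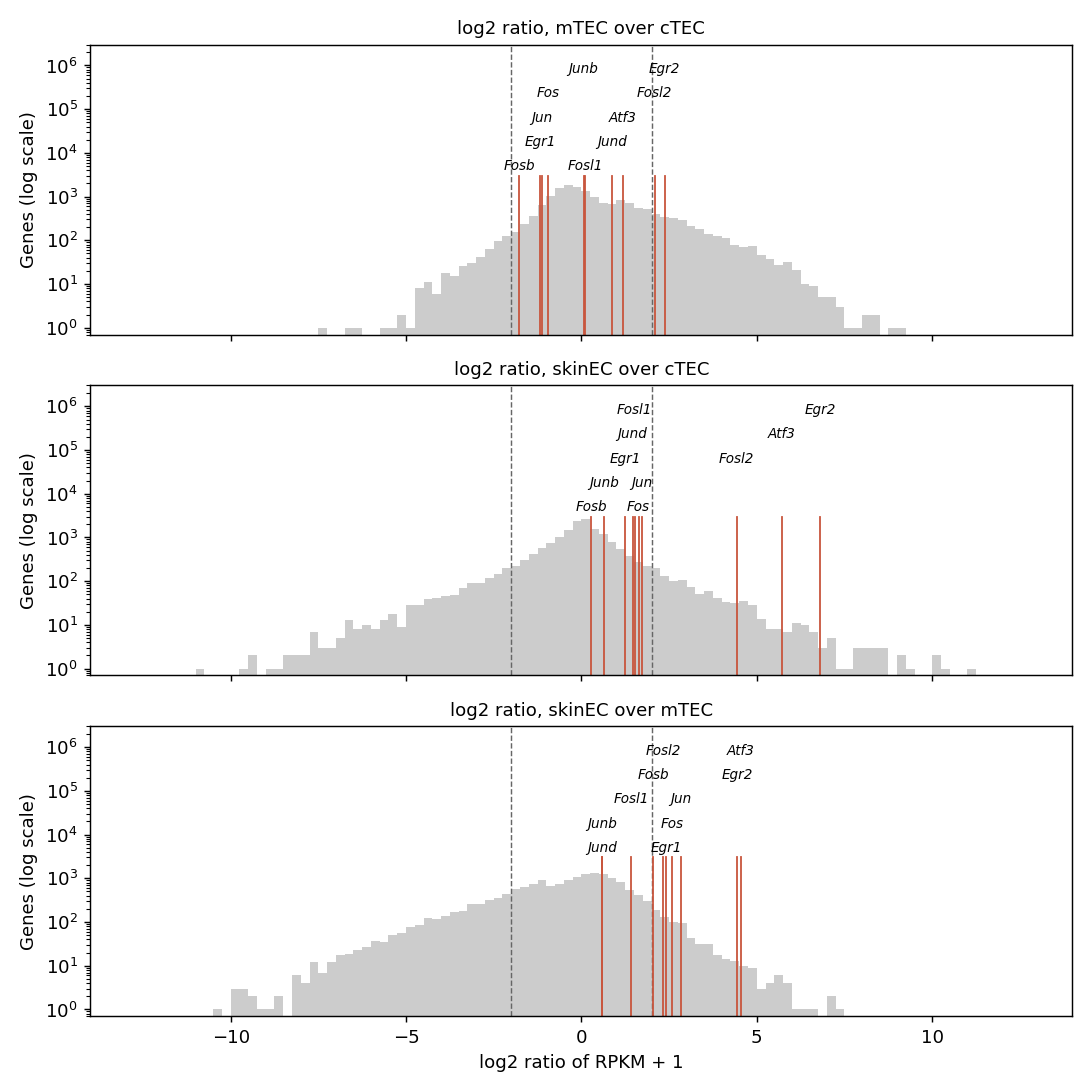
Number of genes (log scale, grey) by log2 ratio of RPKM + 1 over 16869 genes, for mTEC over cTEC, skinEC over cTEC and skinEC over mTEC, with the 10 members as red lines and the 4-fold rule dashed. Members lie on either side of 0 between the thymic libraries and to the right of 0 in both comparisons with skinEC (Fosb over cTEC turns on the TPM scale), where 3 and 7 pass the rule.

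Other immediate early response genes did not all share the pattern of the members. Of 48 such genes, 47 reached 1 RPKM in any library. Between the thymic libraries, 18 of these lay at least 4-fold toward mTEC, where 15.2% of all genes did, and 2, Rhob and Zfp36l1, toward cTEC, where 2.69% did, with a median log2 ratio of mTEC over cTEC of 1.00 against 0.08 for all genes. The leukocyte and myeloid markers given above also lay toward mTEC, and their part in this count was not tested. The largest ratios belonged to Ptgs2, the inducible cyclooxygenase gene, at 0.0895 in cTEC, 75.6 in mTEC and 1.13 RPKM in skinEC, to the stress gene Gadd45b, at 2.65, 121 and 55.0 RPKM, and to Arc, at 0.243, 19.7 and 2.03 RPKM in the same order. The most abundant were Nfkbia, which encodes the NF-kB inhibitor IκBα, at 111, 534 and 214 RPKM, and Zfp36 (281, 133 and 160 RPKM) and Zfp36l1 (171, 39.8 and 115 RPKM), whose products speed the decay of messages.

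Relative to cTEC, 13 of the 47 were at least 4-fold higher in skinEC (5.82% of all genes) and 1, Klf2, was higher in cTEC (6.3% of all genes), with a median log2 ratio of skinEC over cTEC of 1.20 against 0.00 for all genes. Egr3, the epidermal differentiation factor gene Klf4 (2.46 in cTEC, 46.4 in mTEC and 150 RPKM in skinEC) and the kinase gene Sgk1 (2.42, 21.05 and 80.0 RPKM) had the largest ratios. Between mTEC and skinEC, 5 genes were at least 4-fold higher in skinEC, against 4.2% of all genes, and 4 in mTEC, against 16.8%, with a median log2 ratio of skinEC over mTEC of 0.29 against -0.16 for all genes. The 5 higher in skinEC, on the side where the members lay, were Egr3 (log2 ratio of skinEC over mTEC 3.15), the orphan receptor gene Nr4a1 (2.98), the matricellular protein genes Ctgf (2.94) and Cyr61 (2.66), and Zfp36l2 (2.66). The 4 higher in mTEC were Ptgs2, Gem (5.06, 25.6 and 2.08 RPKM in cTEC, mTEC and skinEC), Areg and Arc. In all, 22 of the 48 genes were highest in skinEC, 18 in mTEC and 8 in cTEC. Of all genes, 33.9% were highest in skinEC, 40.1% in mTEC and 26.1% in cTEC. Of the genes that reached 10 RPKM in any library, these shares were 44.2%, 26.5% and 29.3%. The mTEC count was near the first of these backgrounds and the skinEC count near the second, so neither count was read as apart. For Areg, the gene of an EGF receptor ligand, the table lists 0 in cTEC, while mTEC had 12.3 RPKM and skinEC 0.552 RPKM.

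**Figure D4:**
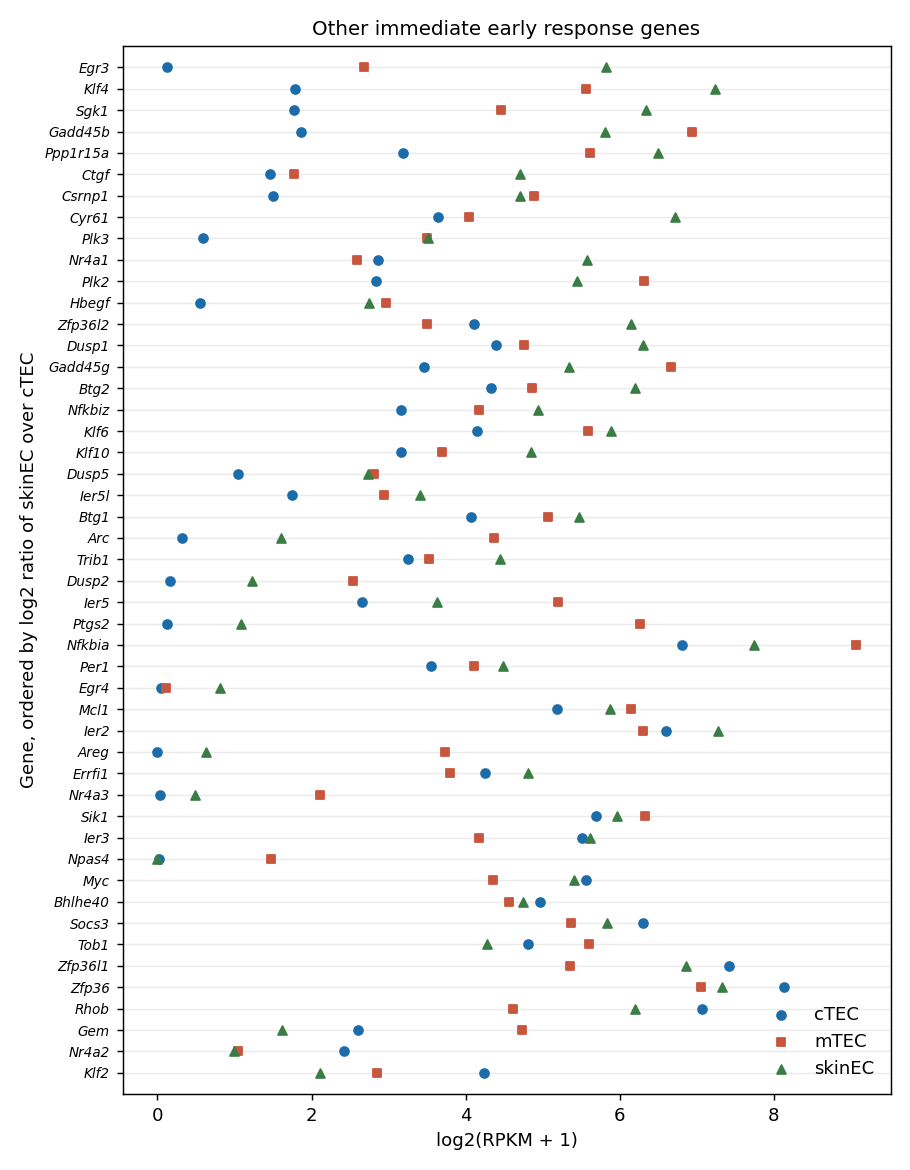
log2(RPKM + 1) of 48 other immediate early response genes in cTEC (circles), mTEC (squares) and skinEC (triangles), ordered by the log2 ratio of skinEC over cTEC. Squares lead in 18 genes and triangles in 22, where 40.1% and 33.9% of all genes were highest. Of genes that reached 10 RPKM in any library, 26.5% and 44.2% were. Among the members the skinEC value is the highest in all 10, or in 9 (without Fosb) on the TPM scale.

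Genes upstream of these factors were read next. Of 17 measured genes of the serum response and ERK cascade, 16 stayed within 4-fold between cTEC and mTEC, and 1, Egfr, which encodes the EGF receptor, was higher in cTEC (49.7 in cTEC, 11.2 in mTEC and 41.9 RPKM in skinEC). Map2k1, which encodes the ERK kinase MEK1, was at 149, 49.7 and 34.9 RPKM, highest in cTEC and lowest in skinEC. Elk3, a ternary complex factor gene of the serum response element, was at 4.16, 13.3 and 0.769 RPKM. Most of this list went otherwise than Map2k1 and Elk3. Of the 17, 10 were highest in skinEC, where 33.9% of all genes and 44.2% of those that reached 10 RPKM were. The lowest value was in mTEC for 13, against 5553 of all 16869 genes. The median log2 ratio of skinEC was 0.80 over mTEC (-0.16 for all genes) and 0.32 over cTEC (0.00 for all genes). Of 15 measured genes of the JNK and p38 cascades, 13 stayed within 4-fold between the thymic libraries, and Mapk11 and Mapk13 were higher in mTEC. Mapk13, which encodes p38δ, was at 17.6 in cTEC, 107 in mTEC and 129 RPKM in skinEC, and Mapk8ip1, which encodes the JNK scaffold JIP1, at 76.2, 28.8 and 12.6 RPKM. Among 12 feedback genes, Dusp4 and Dusp8 were at least 4-fold higher in mTEC than in cTEC and Spry1 in cTEC. Dusp4, an ERK phosphatase gene, was at 1.15 in cTEC, 105 in mTEC and 5.43 RPKM in skinEC. By the same rule 15.2% of all genes lay toward mTEC and 2.69% toward cTEC. The 4-fold counts of these 3 small lists, at most 2 genes in a direction, were therefore not read as apart from the background.

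Among 25 other bZIP genes, Batf, Batf3 and Nrl lay at least 4-fold toward mTEC against cTEC and Maf toward cTEC, with a median log2 ratio of mTEC over cTEC of 0.45 against 0.08 for all genes. With 3 and 1 of 25, these counts were near the shares of all genes, 15.2% and 2.69%. Batf, which encodes a partner of Jun proteins in lymphoid cells, was at 0.508 in cTEC, 9.13 in mTEC and 0.554 RPKM in skinEC, and Batf3, known from dendritic cells, at 0.695 in cTEC, 6.81 RPKM in mTEC and listed at 0 in skinEC. The same leukocyte markers were highest in mTEC as well, and their part in these 2 values was not tested. Maf was at 41.9 in cTEC, 7.68 in mTEC and 8.38 RPKM in skinEC. Cebpb (3.76, 14.6 and 46.3 RPKM) and Cebpa (23.6, 36.7 and 136 RPKM), which encode C/EBP factors of epidermal differentiation, were the 2 genes at least 4-fold higher in skinEC than in cTEC. The Maf family genes Mafa (24.5, 7.98 and 4.16 RPKM) and Maf were the 2 at least 4-fold higher in cTEC than in skinEC. The abundant stress factor gene Atf4 differed little (101, 82.3 and 134 RPKM).

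Heat shock genes, which are also induced when cells are isolated, were read beside the members. Of 13, 9 were highest in skinEC, where 33.9% of all genes and 44.2% of genes that reached 10 RPKM in any library were. The summed level of the 13 was 2213 in cTEC, 2343 in mTEC and 2660.0 RPKM in skinEC. Against cTEC, 2 were at least 4-fold higher in skinEC, Hspb1 (1.68 in cTEC, 45.8 in mTEC and 54.9 RPKM in skinEC) and Dnajb1 (20.3, 22.4 and 85.0 RPKM), where 5.82% of all genes were, and the median log2 ratio of skinEC over cTEC was 0.47 against 0.00 for all genes. Against mTEC none was at least 4-fold higher in skinEC, where 4.2% of all genes were, with a median log2 ratio of skinEC over mTEC of 0.52 against -0.16 for all genes. Their part in the levels of the AP-1 genes was not tested.

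Of 17 measured genes named in textbooks as AP-1 targets, 9 were at least 4-fold higher in mTEC than in cTEC (15.2% of all genes) and 1, Mmp9, was higher in cTEC (2.69% of all genes), with a median log2 ratio of mTEC over cTEC of 2.01 against 0.08 for all genes. Relative to cTEC, 5 were at least 4-fold higher in skinEC (Krt1, Ccnd1, Lor, Ivl and Gja1), against 5.82% of all genes, and 2 were lower (Mmp9 and Tnc), against 6.3%, with a median log2 ratio of skinEC over cTEC of -0.01. Against mTEC 4 were higher in skinEC (Krt1, Ccnd1, Cd44 and Gja1), against 4.2% of all genes, and 6 were lower (Mmp9, Mmp13, Plaur, Timp1, Hmox1 and Vim), against 16.8%, with a median log2 ratio of skinEC over mTEC of -1.16 against -0.16 for all genes. Summed leukocyte (854 RPKM) and fibroblast (101 RPKM) markers were likewise highest in mTEC, and their part in the levels of genes such as Vim (26.9, 161 and 10.5 RPKM in cTEC, mTEC and skinEC) and Timp1 (3.54, 28.8 and 0.483 RPKM) was not tested. Of the genes counted as higher in skinEC than in cTEC, Krt1, Lor and Ivl were also among the keratinocyte markers given above. Their place in that count therefore adds nothing to the markers. Krt1, a keratin gene of the suprabasal epidermis, was at 0.838 in cTEC, 25.6 in mTEC and 1940.0 RPKM in skinEC. The cyclin D1 gene Ccnd1 was at 3.47, 19.6 and 109 RPKM, an order shared with the 6 members lowest in cTEC. The gelatinase gene Mmp9 went the other way, at 217 in cTEC, 39.4 in mTEC and 0.148 RPKM in skinEC, as did the tenascin gene Tnc (664, 304 and 120 RPKM).

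Genes with the most similar levels over the 3 libraries were found by the Euclidean distance of log2(RPKM + 1) among 16859 other genes, which with 3 points is a description only. For Fos the nearest were Csda (133 in cTEC, 80.1 in mTEC and 471 RPKM in skinEC, distance 0.300), the junction gene Jup (distance 0.363) and Fam162a (distance 0.555). For Jun they were S100a10 (distance 0.417), Csda (distance 0.495) and Hmgn1 (distance 0.585), and for Egr1 Fam162a (distance 0.475), Jup (distance 0.478) and Ptprf (distance 0.490). For Fosl1 they were Brip1 (distance 0.0855), Hist1h2bj (distance 0.214) and AU022754 (distance 0.286), at levels near 1 RPKM where many genes lie close together.

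Some members share genomic sequence with a transcript on the other strand in the GENCODE M21 annotation. This holds for Jun with Junos, Junb with Prdx2, Jund with Gm11175, Fosl1 with Ccdc85b and Atf3 with Gm24748. Overlap was taken over whole gene spans, introns included, and whether exons overlap was not checked. Whether counting used strand is not stated in the labels. Reads from a shared exonic stretch, if any, therefore cannot be assigned in these 5 genes. Fos, Fosb, Fosl2, Egr1 and Egr2 had no overlapping gene.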

How the data were processed

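Sorted epithelial RNA was sequenced on an Illumina instrument, with 1 TruSeq library from pooled mice per population, per the labels. The authors deposited RPKM values per gene, as the deposited file's header says. CASAVA 1.8.2 and mm9 are named, with no role, by the submitters' processing notes; which aligner, annotation and strand option produced the values is not given in the sources used here. The first of 5 sheets was used (22663 rows, 22609 symbols). Where a symbol was repeated (47 symbols), only its highest row by summed RPKM was used.

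Ratios were log2((RPKM + 1) / (RPKM + 1)), over the 16869 genes that reached 1 RPKM in any library, and a gene counted as apart from 4-fold. No p-value was computed, since 1 library per population leaves no spread. Of 16 gene lists (202 symbols), Hras and Trdc were not matched in the table. Members and lists were chosen with earlier results of these data known. The text names all members and, from the 7 lists of related genes, a choice among the 3 largest ratios per comparison and the 3 highest levels per list, plus genes counted in groups of 5 or fewer.

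Mapped reads were estimated from the spacing of low values, as whole multiples of 1 read on receptor genes with a single coding length in GENCODE M21. Within 0.02 reads, 76.8% of 422 genes in mTEC and 68.2% of 44 in cTEC came out whole. For skinEC, 40 genes whole in both thymic libraries were used, of which 60.0% were whole, so this depth is less certain. Such depths cover counting error only. Read numbers of single genes assume the longest M21 transcript and are approximate. Python 3.11.15, pandas 2.3.3 and numpy 2.4.6 were used. The alternatives were another pseudocount (0.1 RPKM), no filter or one at 5 RPKM, 3 other scalings and a 2-fold rule.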

Additional observations from a re-analysis of the deposited data

How the results depend on the processing

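The counts of members at least 4-fold apart were 2 (cTEC against mTEC), 3 (cTEC against skinEC) and 7 (mTEC against skinEC), and stayed within 1.5 times of these under 6, 6 and 6 of 7 alternatives. With a 2-fold rule they were 6, 8 and 8. Scaling by the median ratio gave 4 in place of 7 for mTEC against skinEC, and the TPM scale and the sum without the 50 largest genes gave 6. The counts of other immediate early response genes apart (20, 14 and 9) became 27 for cTEC against skinEC and 27 for mTEC against skinEC with the 2-fold rule, which is looser by construction. Of 177 ratios of single members under an alternative, 166 stayed on their side of the rule and within 0.5 on the log2 scale, and 11 did not. The settings with no filter and with a filter at 5 RPKM decide only which genes are kept. They could not change a member's ratio, although they are part of the 177, and they left the member counts as they were. The one change of sign was that of Fosb between cTEC and skinEC on the TPM scale, which moves the median of all genes by -0.17 there and by -0.42 for skinEC over mTEC. With 1 library per population, leaving out a replicate could not be run. No paired analysis was possible because each group holds 1 sample. Low members (Fosl1, Egr2 in cTEC) are limited by depth and by the pseudocount: with 0.1 RPKM the log2 ratio of Egr2 for cTEC against skinEC was -9.18 in place of -6.80.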
